A study of Homo sapiens with 8 samples.

Results

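Human ARPE-19 cells, a widely used cell line grown from retinal pigment epithelium, were compared between 2 libraries from cells kept for 24 h with diesel exhaust particulate and 2 libraries from cells kept for 24 h with vehicle. These 4 libraries were chosen by their labelled treatment, out of 8 in the series, and every gene with enough reads in them was described. The particulate was NIST SRM 1650b, a reference material collected from diesel engines, at 200 µg/mL (the labels name it PM2.5 in the sample titles). The control received an equal volume of PBS. The other 4 libraries came from cells given 400 µg/mL fucoidan, a sulfated seaweed sugar (from Fucus vesiculosus), alone or together with the particulate, and are used below for a repeat of the contrast in libraries it does not share, for the difference between both contrasts and for an alternative fit of all 8 libraries. All cells grew in DMEM/F12 with 10% fetal bovine serum and were treated at about 80% confluence. Before dilution in PBS the particles were held in DMSO, which ended below 0.1% on the cells. No library received DMSO alone, so particles and solvent cannot be told apart. The 2 libraries of each group are labelled biological replicates of 1 cell line, with no word on whether they came from separate cultures or days, so the p-values measure the spread between these samples only.

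The retinal pigment epithelium is a single layer of pigmented cells that nourishes the photoreceptors, recycles retinoids and takes up shed photoreceptor membranes. Diesel particles carry polycyclic aromatic hydrocarbons, which activate the aryl hydrocarbon receptor, and metals and quinones, which generate reactive oxygen species. Cells answer such oxidants through the transcription factor NRF2, which raises glutathione and quinone-detoxifying genes, and a shortage of amino acids or cystine through ATF4. Growth factor signals run through MAP kinases to AP-1, and actin tension runs through serum response factor and YAP to contractile and matrix genes.

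Total counts ran from 14359672 to 16841464 reads a library. Control replicates differed at least 2-fold in 5 of 14387 genes (0.0348%) and particulate replicates in 133 (0.924%). On the first principal component, with 82.6% of the variance, the control libraries lay at -50 and -44.9 and the particulate libraries at 48.7 and 46.1. The second, with 12.3%, set the particulate libraries apart from each other, at 25.5 and -26.3. Mitochondrially encoded genes took 1.51% and 2.27% of the control counts and 3.74% and 2.24% of the particulate counts. Levels below are read counts relative to the TMM-scaled library size, in the usual CPM unit, given as replicate 1 and then replicate 2, or as mean ± SD (n = 2). Changes in brackets are log2 fold changes of particulate against control ± SE (standard error) by the edgeR quasi-likelihood test on the 4 libraries (n = 2 a group), with p-values adjusted by Benjamini-Hochberg over all genes tested, and a gene passed when its adjusted p was under 0.05. For each named gene that passed, PFKFB3 excepted, both particulate libraries lay on the same side of both control libraries.

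Of the 14387 genes tested, 4187 passed (29.1%). Of these 1950 were higher with particulate (13.6% of the genes tested) and 2237 lower (15.5%). These 2 shares are the background for every list count below, and a count near them says nothing particular about the list. At least 2-fold changes were more often decreases: 611 genes rose by that much (4.25%) and 1231 fell (8.56%). At least 4-fold changes numbered 110 upward and 410 downward. The genes that rose summed to 98917 CPM in control and 182842 CPM with particulate, and those that fell to 271844 and 128458 CPM. The median change over all tested genes was 0.01. Leaving out 1 library moved the number of passing genes: 1755 without control replicate 1, 2087 without control replicate 2, 6479 without particulate replicate 1 and 6831 without particulate replicate 2. Higher genes made up 46.6% of the calls, against 33.8% and 35.4% without a control library and 50% and 49.4% without a particulate library. In bulk RNA, fewer cells of a kind and less RNA per cell cannot be told apart.

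**Figure D1:**
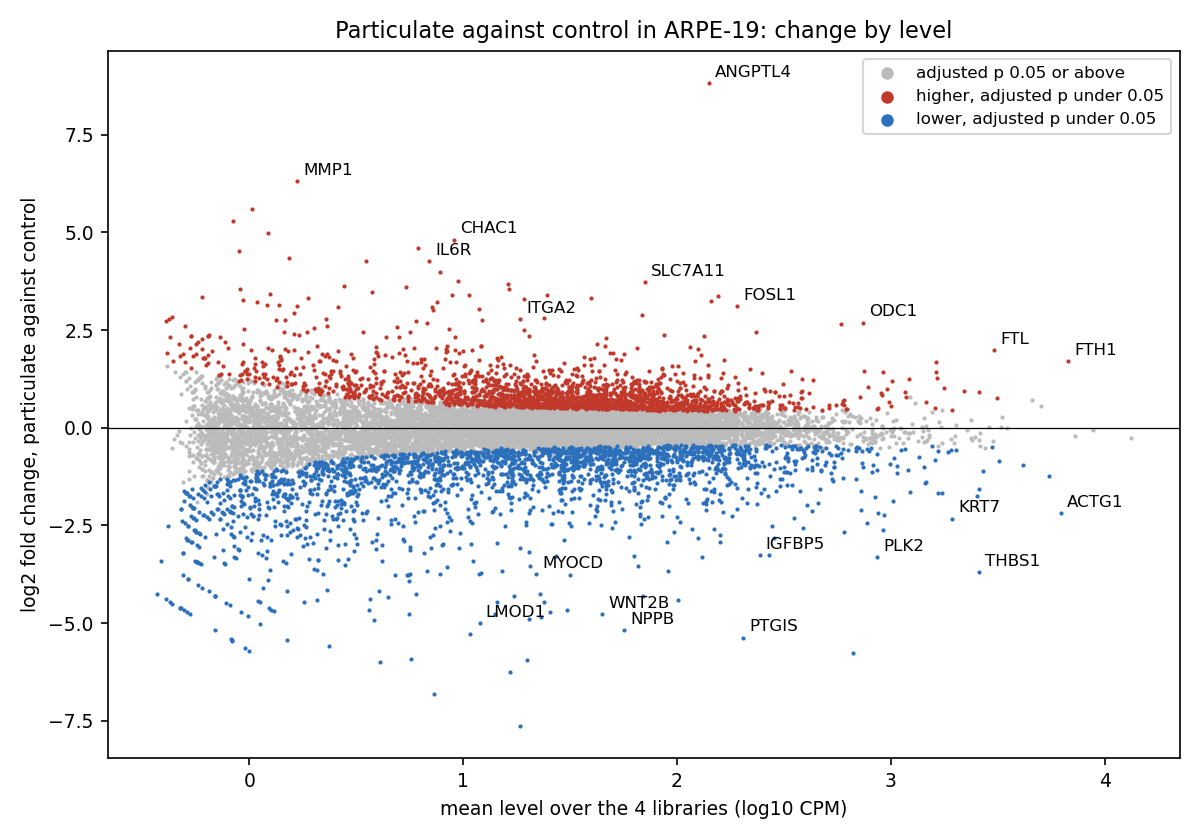
Change against level for the tested genes, with the mean level over the 4 libraries in log10 CPM on the x axis and the log2 fold change of particulate against control on the y axis. Each point is a gene, red where it rose and blue where it fell at an adjusted p under 0.05, and 15 genes with no read in 1 group are not drawn. ANGPTL4 is the highest labelled point and PTGIS the lowest. Over all tested genes, including those not drawn, 410 fell and 110 rose at least 4-fold.

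The steepest increases included a cytokine receptor, a lipid enzyme and a Wnt receptor. IL6R, the interleukin 6 receptor, had 0.716 and 0.645 CPM in control and 10.1 and 16.4 CPM with particulate (change 4.27 ± 0.34, adjusted p = 7.43e-07). GPAT3, which starts triglyceride synthesis, had 2.22 and 2.90 CPM in control and 31.1 and 29.2 CPM with particulate (change 3.55 ± 0.23, adjusted p = 8.8e-08). The Wnt receptor gene FZD8 had 4.24 ± 0.121 CPM in control and 44.9 ± 10.01 CPM with particulate (3.40 ± 0.23) and the long noncoding RNA gene LUCAT1 1.54 ± 0.353 CPM in control and 16.2 ± 7.69 CPM with particulate (3.40 ± 0.35). In all 4 genes both particulate libraries lay above both control libraries, as the rule for naming them required. Libraries of the groups did not overlap in 65.3% of all tested genes.

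The steepest decreases took genes to a few percent of their control level. PTGIS, which makes prostacyclin, had 427 and 367 CPM in control and 9.68 and 9.51 CPM with particulate (change -5.37 ± 0.19, adjusted p = 7.82e-10). NPPB, which encodes B-type natriuretic peptide, had 110.3 and 110.2 CPM in control and 2.43 and 3.68 CPM with particulate (change -5.17 ± 0.23, adjusted p = 6.23e-09). In both genes the particulate libraries lay far below the control libraries. TGM1, a transglutaminase of cornified epithelium, changed by -4.85 ± 0.23 and CCDC190 by -5.91 ± 0.36. Reads were absent from both particulate libraries for UPB1, a pyrimidine breakdown enzyme, and for the noncoding gene LINC01203, with 66 and 64 reads over the control libraries. Taking 3 reads as the limit that a group without reads allows, these genes were at least 25.05-fold and at least 24.3-fold lower.

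By difference in CPM, ferritin genes gained most and actin genes were among those that lost most. FTH1, the ferritin heavy chain, had 3157 and 3174 CPM in control and 11704 and 8876 CPM with particulate (change 1.70 ± 0.18, adjusted p = 1.23e-05). FTL, the light chain, had 1211 and 1212 CPM in control and 5296 and 4384 CPM with particulate (change 2.00 ± 0.17, adjusted p = 1.55e-06). In the other direction, ACTG1, cytoplasmic gamma-actin, had 10356 and 10130.1 CPM in control and 2417 and 2064 CPM with particulate (change -2.19 ± 0.17, adjusted p = 7.43e-07). ACTB, cytoplasmic beta-actin, had 7669 ± 197 CPM in control and 3289 ± 449.7 CPM with particulate (-1.22 ± 0.17). SPARC, a collagen-binding matrix protein, had 3889 ± 99.3 CPM in control and 1169.6 ± 54.8 CPM with particulate (-1.73 ± 0.16). Both genes of ferritin and of cytoplasmic actin have processed pseudogenes, and the sources used here do not say how reads with several alignments were counted.

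**Figure D2:**
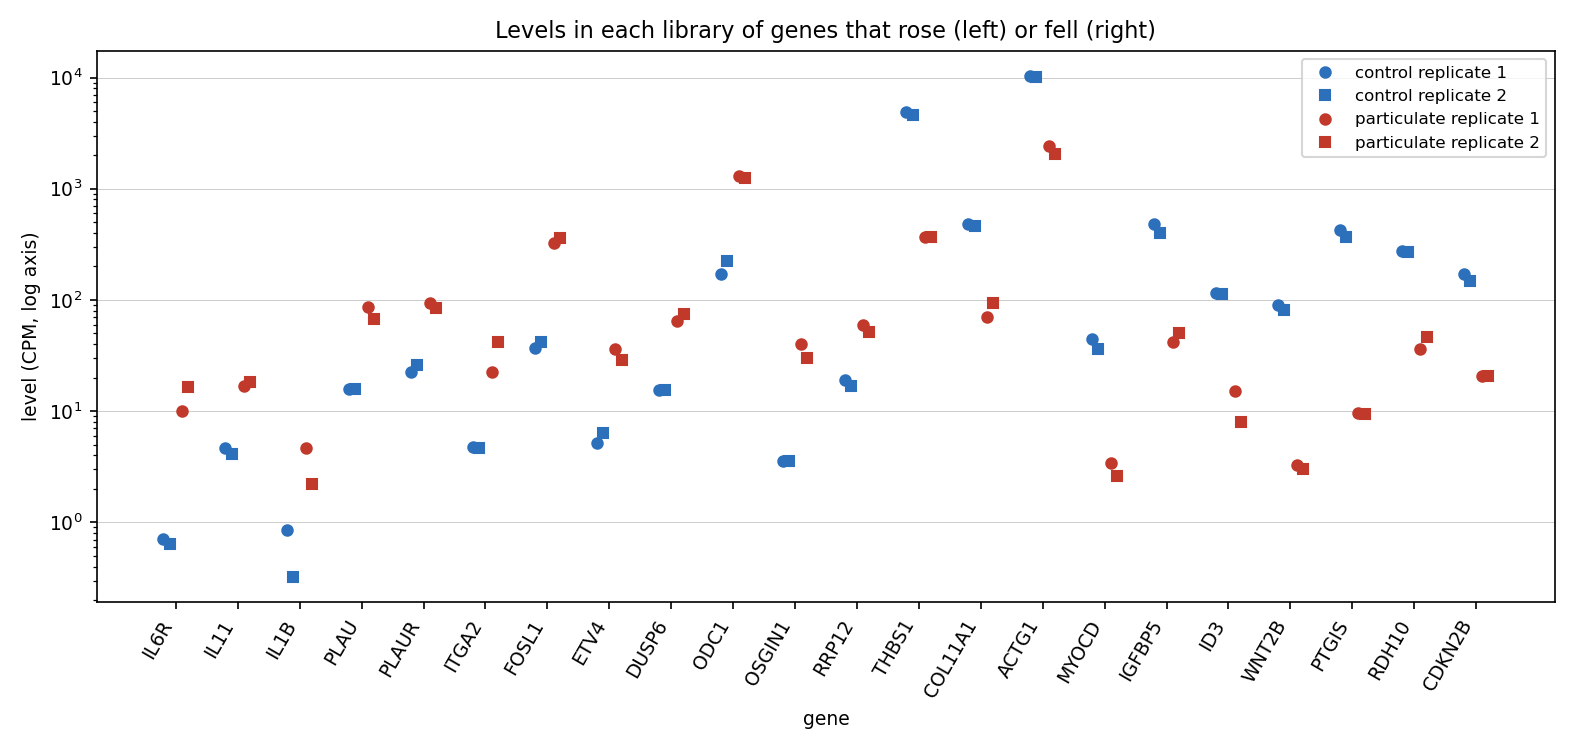
Level of 22 genes in each library, in CPM on a log axis, with control in blue, particulate in red, circles for replicate 1 and squares for replicate 2. The 12 genes on the left rose and the 10 on the right fell. In each of them the control and particulate libraries do not overlap, as in 65.3% of all tested genes.

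Members of a list of the aryl hydrocarbon receptor, its partners and its targets moved both ways. Of 11 tested members of a list of 16, 5 rose and 3 fell. Rising members of this list numbered 3 in the fit of all 8 libraries. CYP1A1, the cytochrome P450 that oxidizes polycyclic aromatic hydrocarbons, had 2.29 and 2.32 CPM in control and 10.3 and 6.63 CPM with particulate (change 1.87 ± 0.28, adjusted p = 0.000192, adjusted p = 0.11 in the fit of all 8 libraries). TIPARP, which the receptor induces and which represses it, had 54.04 and 50.01 CPM in control and 124 and 105 CPM with particulate (change 1.14 ± 0.16, adjusted p = 0.00016). Both genes stood higher in both particulate libraries. The receptor gene itself, AHR, had 21.8 ± 0.588 CPM in control and 16.7 ± 2.40 CPM with particulate and did not pass (change -0.38 ± 0.19, adjusted p = 0.145). NEDD9, a focal adhesion scaffold, and ARNT2, a relative of the receptor's partner, fell by 1.90 ± 0.18 and 1.24 ± 0.17 on the log2 scale.

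Most glutathione genes that passed rose, and the peroxidases among them fell. Of 16 tested members of the glutathione and cystine list, 9 rose and 2 fell, around a median of 0.73. Falling glutathione genes numbered 1 without control replicate 1 or 2. GCLM, the regulatory subunit of the enzyme that commits cysteine to glutathione, had 20.04 and 20.6 CPM in control and 67.1 and 86.9 CPM with particulate (change 1.92 ± 0.19, adjusted p = 4.8e-06). SLC3A2, the partner subunit of the cystine importer, had 226 ± 12.1 CPM in control and 542 ± 44.4 CPM with particulate (1.26 ± 0.16) and ABCC3, an exporter of glutathione conjugates, 3.41 ± 0.470 CPM in control and 13.3 ± 1.80 CPM with particulate (1.96 ± 0.23). GPX1, which spends glutathione to remove peroxide, had 451 and 440.0 CPM in control and 191 and 127 CPM with particulate (change -1.49 ± 0.19, adjusted p = 5.69e-05), and GPX4, which acts on lipid peroxides, 400.4 ± 13.7 CPM in control and 256 ± 53.9 CPM with particulate (change -0.65 ± 0.17, adjusted p = 0.0121, but 0.161 and 0.092 without control replicate 1 and 2). The transcription factor gene NFE2L2, which encodes NRF2, had 152 ± 3.24 CPM in control and 145 ± 9.01 CPM with particulate and did not pass (change -0.06 ± 0.15, adjusted p = 0.79). NRF2 is regulated mostly at the protein level, which these data do not measure.

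In the thioredoxin and NADPH list 10 of 21 tested members rose and 1 fell (median 0.45). Falling thioredoxin and NADPH genes numbered 3 without particulate replicate 1. OSGIN1, an oxidative stress-induced growth inhibitor, had 3.58 and 3.55 CPM in control and 40.2 and 29.9 CPM with particulate (change 3.30 ± 0.23, adjusted p = 1.87e-07). TXN, thioredoxin, had 50.8 ± 7.56 CPM in control and 151 ± 3.90 CPM with particulate (1.57 ± 0.17). The member that fell was TXNIP, which binds and inhibits thioredoxin, with 44.7 and 41.6 CPM in control and 15.1 and 14.4 CPM with particulate (change -1.55 ± 0.18, adjusted p = 2.1e-05). Ferroptosis is an iron-dependent death by lipid peroxidation, and of 14 tested regulators 6 rose and 4 fell. Rising ferroptosis regulators numbered 2 without control replicate 1 or 2. AIFM2, which reduces coenzyme Q at membranes and opposes ferroptosis, had 25.8 ± 0.703 CPM in control and 50.9 ± 5.51 CPM with particulate (0.98 ± 0.18). GCH1, which starts tetrahydrobiopterin synthesis, had 4.12 ± 0.254 CPM in control and 13.3 ± 2.05 CPM with particulate (1.69 ± 0.22). NOX4, an oxidase that produces hydrogen peroxide, had 32.5 and 33.7 CPM in control and 6.09 and 6.44 CPM with particulate (change -2.40 ± 0.19, adjusted p = 7.78e-07).

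Not all detoxifying enzymes rose. Among aldo-keto reductases, aldehyde dehydrogenases and carbonyl reductases 2 of 16 tested members rose and 4 fell. Rising reductases and dehydrogenases numbered 1 without control replicate 1 or 2, and falling ones 8 without particulate replicate 1. The 4 were the aldehyde dehydrogenase genes ALDH3B1 (114 ± 11.7 CPM in control and 31.6 ± 2.95 CPM with particulate, -1.85 ± 0.17), ALDH6A1 (-1.51 ± 0.20), ALDH1A3 (479 ± 29.4 CPM in control and 172 ± 17.8 CPM with particulate, -1.47 ± 0.16) and ALDH1B1 (-1.35 ± 0.16). ALDH1A3 also makes retinoic acid. Of 15 tested glutathione S-transferases and sulfotransferases 3 rose (20%) and 2 fell (13.3%), near the 13.6% and 15.5% of all genes. Rising transferases numbered 1 without control replicate 1, and falling ones 4 with no filter on low counts. MGST1, a microsomal transferase, had 171 ± 19.5 CPM in control and 339.8 ± 20.8 CPM with particulate (0.99 ± 0.16), and SULT1B1, which sulfates phenols, 6.87 ± 0.407 CPM in control and 1.05 ± 0.421 CPM with particulate (-2.71 ± 0.30). Metallothioneins bind zinc, copper and cadmium. Of 13 tested metallothionein and zinc transport genes 5 rose and 1 fell. Rising metallothionein and zinc genes numbered 3 in the fit of all 8 libraries, 2 without control replicate 1 or 2 and 8 without particulate replicate 1, and falling ones 0 in limma's test or without control replicate 1 or 2 and 2 without particulate replicate 1. MT2A had 940.2 and 969.7 CPM in control and 2727 and 1896 CPM with particulate (change 1.28 ± 0.19, adjusted p = 0.000192), and MT1X had 11.1 ± 2.11 CPM in control and 28.6 ± 0.0923 CPM with particulate (1.37 ± 0.20).

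Genes of amino acid supply rose together with those that charge transfer RNAs. Of 24 tested ATF4 targets and amino acid synthesis genes 14 rose and 0 fell (median 0.76). Falling ATF4 targets numbered 1 with no filter on low counts or in the fit of all 8 libraries, 2 without particulate replicate 1 and 3 without particulate replicate 2. PSAT1, an enzyme of serine synthesis, had 42.02 and 47.4 CPM in control and 185 and 187 CPM with particulate (change 2.06 ± 0.16, adjusted p = 6.17e-07). TRIB3, a pseudokinase induced by ATF4, had 17.8 and 16.9 CPM in control and 81.6 and 67.2 CPM with particulate (change 2.1 ± 0.18, adjusted p = 1.67e-06). MTHFD2, a mitochondrial folate enzyme, had 64.1 ± 7.16 CPM in control and 142 ± 20.5 CPM with particulate (1.15 ± 0.17). ATF3, another factor usually induced by stress, had 32.6 ± 0.327 CPM in control and 39.6 ± 3.31 CPM with particulate and did not pass (change 0.28 ± 0.17, adjusted p = 0.245). Of 20 aminoacyl-tRNA synthetases 13 rose and 1 fell, with a median of 0.51. Rising synthetases numbered 3 without control replicate 1 and 6 without control replicate 2, and falling ones 0 without control replicate 1 or 2. MARS1, for methionine, had 105 and 116 CPM in control and 245 and 229 CPM with particulate (change 1.10 ± 0.16, adjusted p = 0.000133), GARS1, for glycine, 87.4 ± 10.8 CPM in control and 181 ± 4.45 CPM with particulate (1.05 ± 0.16), and YARS1, for tyrosine, 68.5 ± 3.48 CPM in control and 139 ± 8.62 CPM with particulate (1.02 ± 0.16).

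CHAC1 degrades glutathione and is a target of ATF4. Its upstream stretch is shown because it had the highest fold change of the ATF4 list (change 4.82 ± 0.41, adjusted p = 1.34e-06) and holds the ATF4 composite element. Its level was 0.501 and 0.710 CPM in control and 11.4 and 23.6 CPM with particulate. The 250 bases before its start (RefSeq, GRCh38.p14, chr15:40953221-40953470, plus strand) are printed 5′ to 3′ with the match to TGATGNAA in capitals. It lies on the strand opposite to the gene and ends 202 bases before the start.
CHAC1: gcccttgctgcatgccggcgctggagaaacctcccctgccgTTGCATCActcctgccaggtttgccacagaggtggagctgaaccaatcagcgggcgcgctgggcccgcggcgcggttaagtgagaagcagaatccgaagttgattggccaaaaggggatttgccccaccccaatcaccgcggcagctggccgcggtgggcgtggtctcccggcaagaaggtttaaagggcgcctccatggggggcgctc
The element, searched on both strands over 250 bases before to 50 after the start, occurred in 2 of 20 ATF4-list promoters (10%), CHAC1 and ATF3, in 3.67% of 27305 promoters and in 1.54% of the 10675 promoters of tested genes. It occurred in 1.51% of 398 promoters of genes that rose at least 2-fold and in 2% of 848 promoters of genes that fell at least 2-fold, against 1.48% of those of genes that did not pass. A match describes the letters in this window and is not evidence of binding.

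Ribosome assembly was the list with the highest share of rising members. Of 29 tested ribosome biogenesis and nucleolar genes 26 rose and 0 fell, with a median of 0.89, against 13.6% of all genes rising. Rising ribosome biogenesis genes numbered 13 without control replicate 1 and 15 without control replicate 2. RRP12, a factor of subunit maturation, had 19.2 and 16.97 CPM in control and 59.4 and 51.1 CPM with particulate (change 1.61 ± 0.18, adjusted p = 1.86e-05). NOP16, a nucleolar protein, had 19.4 and 16.9 CPM in control and 56.5 and 45.1 CPM with particulate (change 1.48 ± 0.19, adjusted p = 5.49e-05). MYBBP1A and NOP58, a core protein of small nucleolar ribonucleoproteins, changed by 1.23 ± 0.18 and 1.23 ± 0.18. The ribosomal proteins themselves behaved otherwise: 0 of 32 rose and 0 fell in edgeR's test, with a median of -0.17. Rising ribosomal protein genes numbered 3 without particulate replicate 2, and falling ones 1 with no filter on low counts and 21 without particulate replicate 1.

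ODC1, which makes putrescine, the first polyamine, had 170.2 and 225 CPM in control and 1304 and 1249 CPM with particulate (change 2.69 ± 0.18, adjusted p = 1.65e-07). NT5E, an enzyme of the cell surface that turns AMP into adenosine, had 378 and 420.4 CPM in control and 1005 and 1192 CPM with particulate (change 1.46 ± 0.17, adjusted p = 2.04e-05). Of the 31 tested members of the serine, folate, polyamine and nucleotide list 11 rose and 4 fell. Rising members numbered 3 without control replicate 1 and 6 without control replicate 2, and falling ones 2 with no filter on low counts, in DESeq2's test, in limma's test or in the fit of all 8 libraries, 1 without control replicate 1 and 0 without control replicate 2.

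Of 25 tested cytosolic chaperones 12 rose (48%) and 4 fell (16%), against 13.6% and 15.5% of all genes. Of 22 endoplasmic reticulum chaperone and unfolded protein response genes 3 rose (13.6%, the share of all genes) and 1 fell. Rising endoplasmic reticulum genes numbered 1 in DESeq2's test, in limma's test or without control replicate 1 or 2, 0 in the fit of all 8 libraries, 7 without particulate replicate 1 and 5 without particulate replicate 2, and falling ones 0 without control replicate 1 or 2 and 5 without particulate replicate 1 or 2. HSP90AA1, the inducible HSP90, had 1367 and 1632 CPM in control and 2777 and 2989 CPM with particulate (change 0.94 ± 0.17, adjusted p = 0.000808). HSPH1, a nucleotide exchange factor of HSP70, had 101 ± 5.66 CPM in control and 196 ± 8.18 CPM with particulate (0.95 ± 0.15) and FKBP4, a cochaperone of HSP90, 110.2 ± 1.40 CPM in control and 213 ± 18.2 CPM with particulate (0.95 ± 0.15). The small heat shock protein genes fell: CRYAB had 2033 and 2199 CPM in control and 898 and 729.5 CPM with particulate (change -1.38 ± 0.17, adjusted p = 4.31e-05), and HSPB1 had 485 ± 38.6 CPM in control and 228 ± 51.96 CPM with particulate (-1.09 ± 0.18). Rising cytosolic chaperones numbered 3 without control replicate 1 and 4 without control replicate 2. Of 31 proteasome subunits 14 rose and 0 fell (median 0.41). Rising proteasome subunits numbered 1 without control replicate 1, 4 without control replicate 2 and 27 without particulate replicate 2. PSMD12, a lid subunit, had 59.1 ± 1.24 CPM in control and 109.6 ± 6.07 CPM with particulate (0.89 ± 0.16) and passed in every alternative fit run. Of 28 tested genes of lysosomal enzymes and the proton pump 5 rose (17.9%), 2 fell and 21 did not pass. Rising lysosomal genes numbered 2 without control replicate 1 or 2, 9 without particulate replicate 1 and 11 without particulate replicate 2, and falling ones 1 with no filter on low counts, in the fit of all 8 libraries or without control replicate 2, 0 without control replicate 1 and 4 without particulate replicate 1 or 2. CTSL, a cathepsin, had 112 and 117 CPM in control and 344 and 304 CPM with particulate (change 1.51 ± 0.16, adjusted p = 9.22e-06), and GLA, an alpha-galactosidase, 31.1 ± 0.983 CPM in control and 83.9 ± 15.1 CPM with particulate (1.43 ± 0.18). The cathepsin genes CTSF and CTSK fell by 0.72 ± 0.16 and 0.49 ± 0.17 on the log2 scale. CTSK did not pass with no filter on low counts (adjusted p = 0.0739) or in the fit of all 8 libraries (adjusted p = 0.0734).

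**Figure D3:**
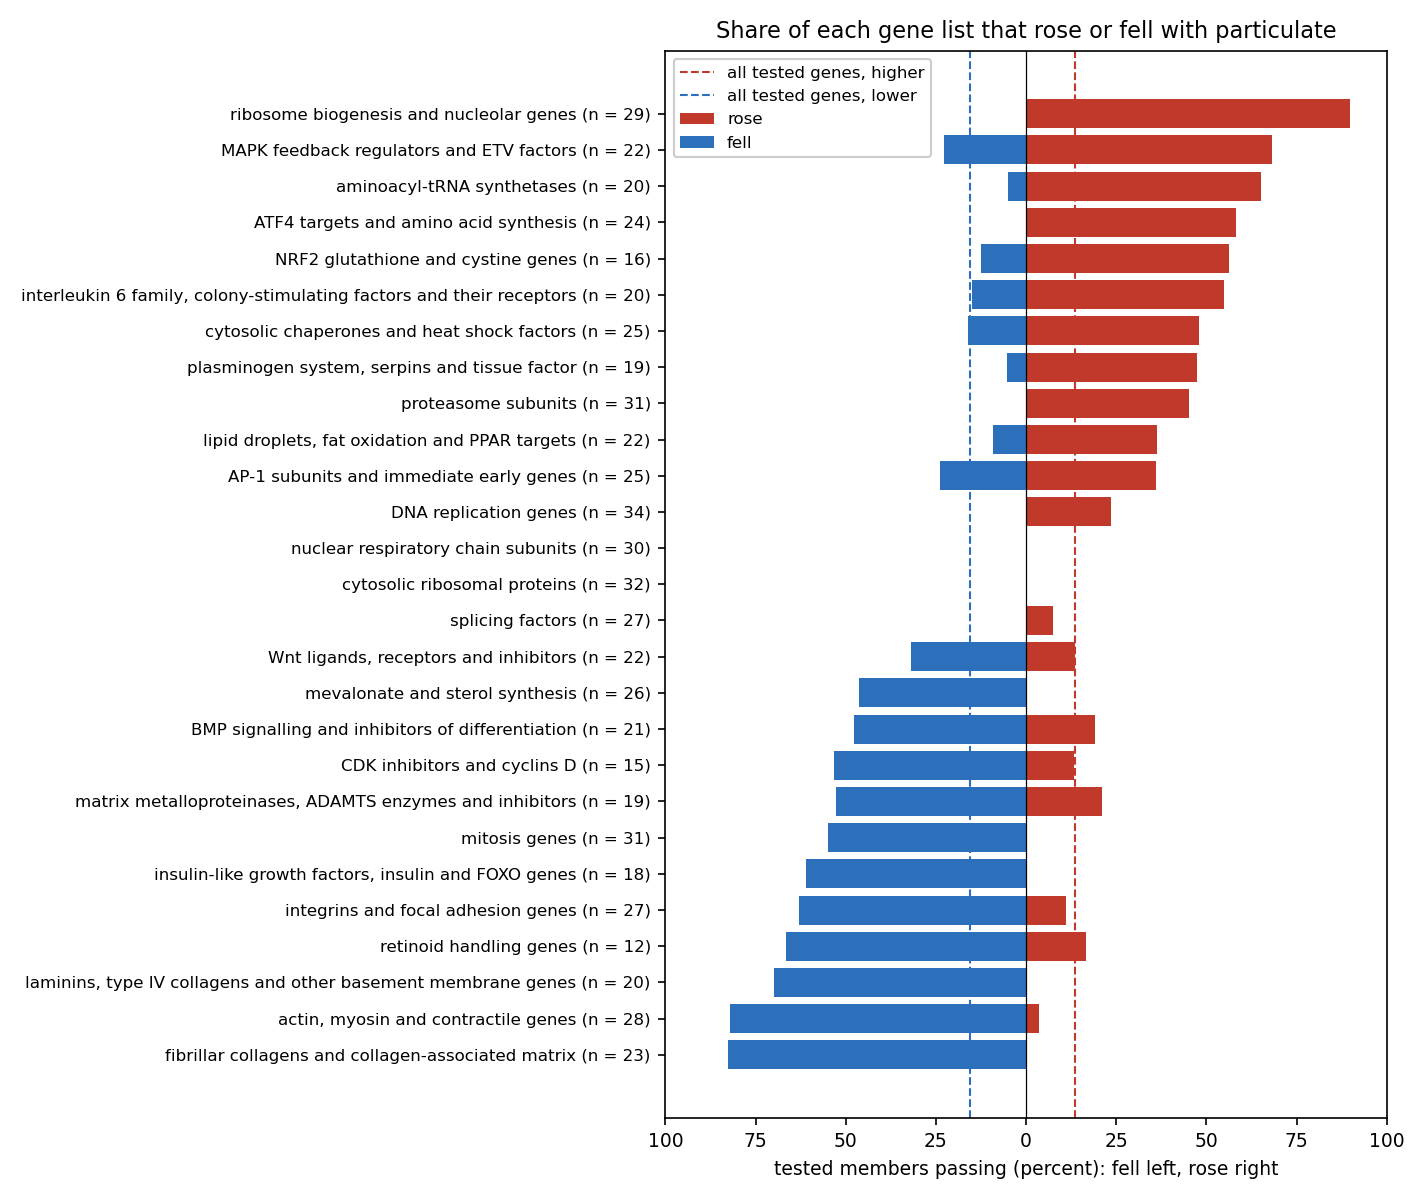
Share of the tested members of 27 gene lists that rose (red, to the right) or fell (blue, to the left) with particulate at an adjusted p under 0.05, in percent, with the number tested beside each name. Dashed lines give the shares over all tested genes, 13.6% higher and 15.5% lower. Ribosome biogenesis reaches furthest right, fibrillar collagens and contractile genes furthest left, and ribosomal proteins and respiratory chain subunits have no bar.

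Several receptors and ligands of the interleukin 6 family rose, while interleukin 6 itself did not pass. Of 20 tested members of the interleukin 6 and colony-stimulating factor list 11 rose and 3 fell (median 0.71). IL11, a fibroblast-acting cytokine of the interleukin 6 family, had 4.65 and 4.13 CPM in control and 16.7 and 18.4 CPM with particulate (change 2.00 ± 0.21, adjusted p = 1.07e-05). IL13RA2, a decoy receptor for interleukin 13, had 1.72 and 1.29 CPM in control and 12.9 and 12.6 CPM with particulate (change 3.08 ± 0.26, adjusted p = 1.06e-06). Interleukin 6 itself, IL6, had 2.01 ± 0.195 CPM in control and 1.86 ± 0.580 CPM with particulate and did not pass (change -0.11 ± 0.33, adjusted p = 0.827). CTF1, cardiotrophin 1, and SOCS2, a suppressor of cytokine signalling, fell by 1.79 ± 0.24 and 1.10 ± 0.21 on the log2 scale.

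In the interleukin 1 family IL1B rose and its antagonist fell. IL1B had 0.859 and 0.323 CPM in control and 4.64 and 2.21 CPM with particulate (change 2.55 ± 0.48, adjusted p = 0.00114), and its receptor gene IL1R1 had 2.15 and 2.45 CPM in control and 8.06 and 10.98 CPM with particulate (change 2.04 ± 0.26, adjusted p = 5.31e-05). IL1RN, which encodes the receptor antagonist, had 7.95 and 7.36 CPM in control and 0.638 and 0.797 CPM with particulate (change -3.40 ± 0.30, adjusted p = 1.55e-06). IL18, a related cytokine, fell, with 217 and 228 CPM in control and 87.4 and 63.3 CPM with particulate (change -1.56 ± 0.18, adjusted p = 1.96e-05). IL33 had 0.337 ± 0.0713 CPM in control and 2.33 ± 0.431 CPM with particulate (2.75 ± 0.43). The list held 4 genes that rose and 2 that fell among 10 tested. Rising interleukin 1 family genes numbered 2 at a minimum of 5 CPM. Among 6 tested chemokines 3 rose and 1 fell. Rising chemokines numbered 5 without particulate replicate 1, and falling ones 0 in the fit of all 8 libraries. CXCL8, the neutrophil attractant, had 13.9 and 18.5 CPM in control and 81.2 and 160.4 CPM with particulate (change 2.89 ± 0.28, adjusted p = 4.15e-06).

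Of 15 tested TNF family ligands and receptors, 4 rose and 4 fell. Rising TNF family genes numbered 2 without control replicate 1 and 1 without control replicate 2. TNFRSF19 had 104 and 104 CPM in control and 13.8 and 16.3 CPM with particulate (change -2.79 ± 0.18, adjusted p = 1.08e-07), and TNFRSF11B, the decoy receptor osteoprotegerin, had 10.7 ± 2.19 CPM in control and 2.45 ± 0.0979 CPM with particulate (-2.13 ± 0.25). TNFRSF21, a death domain receptor, had 17.2 ± 0.612 CPM in control and 35.3 ± 1.67 CPM with particulate (1.04 ± 0.18). Of 22 tested interferon-stimulated genes 2 rose (9.09%) and 5 fell (22.7%), against 13.6% and 15.5% of all genes. Rising interferon-stimulated genes numbered 1 in limma's test, in the fit of all 8 libraries or without control replicate 1, and falling ones 3 at a minimum of 5 CPM and 9 without particulate replicate 1. IRF1, an interferon regulatory factor, had 9.38 and 8.90 CPM in control and 28.3 and 24.3 CPM with particulate (change 1.53 ± 0.19, adjusted p = 5.26e-05), the guanylate-binding protein gene GBP1 had 22.5 ± 0.796 CPM in control and 5.17 ± 0.839 CPM with particulate (-2.12 ± 0.21), and IFIT1, which binds viral RNA, had 32.4 and 34.1 CPM in control and 7.83 and 7.73 CPM with particulate (change -2.09 ± 0.19, adjusted p = 2.14e-06). Of 16 tested complement genes 4 rose and 7 fell. CD55, a regulator that shields host cells by dissolving the convertases, had 129 ± 9.85 CPM in control and 56.9 ± 1.98 CPM with particulate (-1.18 ± 0.16). Rising complement genes numbered 2 in the fit of all 8 libraries and 0 without control replicate 1 or 2, and falling ones 3 without control replicate 1.

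Most targets and brakes of the ERK MAP kinase rose. Of 22 tested feedback regulators and ETV factors 15 rose and 5 fell (median 0.96). Falling feedback regulators numbered 1 in the fit of all 8 libraries or without control replicate 2 and 2 without control replicate 1. DUSP6, a phosphatase of ERK, had 15.5 and 15.6 CPM in control and 63.998 and 74.4 CPM with particulate (change 2.15 ± 0.18, adjusted p = 1.24e-06). DUSP5, a nuclear phosphatase of ERK, had 26.3 and 24.5 CPM in control and 111 and 99.7 CPM with particulate (change 2.05 ± 0.17, adjusted p = 1.12e-06). ETV4, a transcription factor downstream of ERK, had 5.23 and 6.39 CPM in control and 36.5 and 29.1 CPM with particulate (change 2.49 ± 0.21, adjusted p = 1.37e-06), and PHLDA1 had 72.4 ± 2.67 CPM in control and 395 ± 29.8 CPM with particulate (2.45 ± 0.16). DUSP16, which acts on JNK and p38, went the other way, with 60.4 ± 2.41 CPM in control and 29.2 ± 2.64 CPM with particulate (-1.05 ± 0.17).

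Within AP-1, the dimeric factor of FOS and JUN proteins, some subunits rose and others fell. FOSL1, which encodes FRA-1, had 37.2 and 41.5 CPM in control and 322 and 363 CPM with particulate (change 3.12 ± 0.17, adjusted p = 2.26e-08). JUN had 223 and 169 CPM in control and 420.0 and 439 CPM with particulate (change 1.13 ± 0.17, adjusted p = 0.000221). FOS had 295 and 266 CPM in control and 34.9 and 39.3 CPM with particulate (change -2.92 ± 0.17, adjusted p = 3.8e-08), and JUNB had 245 and 189 CPM in control and 58.5 and 54.7 CPM with particulate (change -1.94 ± 0.17, adjusted p = 2.04e-06). In all 4 genes the control and particulate libraries did not overlap, as in 65.3% of all tested genes. Of 25 tested members of the list 9 rose and 6 fell. Falling AP-1 list members numbered 3 in the fit of all 8 libraries. The AP-1 site TGANTCA was found, on either strand, in 8.29% of promoters of genes that rose at least 2-fold, in 6.6% of those that fell as much and in 3.88% of the 7557 promoters of genes that did not pass. It occurs in 7.76% of all 27305 promoters.

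Growth factor and growth factor receptor genes moved both ways. Of 14 tested members of the EGF receptor family list 5 rose and 4 fell. Rising EGF family genes numbered 3 at a minimum of 5 CPM or in limma's test, 1 in the fit of all 8 libraries and 2 without control replicate 1 or 2. Of 15 in the VEGF, PDGF and angiopoietin list 5 rose and 7 fell. Falling VEGF, PDGF and angiopoietin genes numbered 4 without control replicate 1 and 3 without control replicate 2. Of 11 in the FGF list 2 rose and 4 fell. Rising FGF genes numbered 0 in the fit of all 8 libraries or without control replicate 1 or 2. ERBB4, a receptor of the EGF family, had 9.81 and 11.1 CPM in control and 0.522 and 1.04 CPM with particulate (change -3.74 ± 0.31, adjusted p = 1.06e-06), and its ligand gene NRG1 had 42.1 and 44.5 CPM in control and 13.7 and 13.5 CPM with particulate (change -1.67 ± 0.18, adjusted p = 1.14e-05). HBEGF, a ligand of the EGF receptor, rose, with 17.5 ± 0.704 CPM in control and 50.9 ± 3.18 CPM with particulate (1.54 ± 0.18). Its adjusted p was 0.0568 in the fit of all 8 libraries. PDGFRB, the receptor of platelet-derived growth factor B, had 258 and 219 CPM in control and 23.01 and 25.4 CPM with particulate (change -3.30 ± 0.18, adjusted p = 1.83e-08), and PDGFB had 5.37 ± 0.298 CPM in control and 0.805 ± 0.00996 CPM with particulate (-2.73 ± 0.30). FGF1, an acidic fibroblast growth factor, had 41.2 and 47.04 CPM in control and 7.9998 and 7.91 CPM with particulate (change -2.47 ± 0.19, adjusted p = 5.53e-07). NRP1, a coreceptor of vascular endothelial growth factor, rose, with 26.1 and 30.4 CPM in control and 131 and 160.2 CPM with particulate (change 2.36 ± 0.18, adjusted p = 4.48e-07), and VEGFC had 27.9 ± 0.164 CPM in control and 56.4 ± 4.06 CPM with particulate (1.02 ± 0.17).

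Insulin-like growth factor and FOXO genes that passed all fell. Of 18 tested members 11 fell and 0 rose, with a median of -0.81. Rising insulin and FOXO genes numbered 2 without particulate replicate 1. IGFBP5, a binding protein of insulin-like growth factors, had 482 and 398 CPM in control and 41.6 and 50.5 CPM with particulate (change -3.26 ± 0.18, adjusted p = 3.28e-08). IGFBP3 had 1226 and 1387 CPM in control and 328 and 443 CPM with particulate (change -1.76 ± 0.18, adjusted p = 8.8e-06). PIK3IP1, an inhibitor of phosphoinositide 3-kinase, had 50.8 and 47.8 CPM in control and 4.99 and 5.21 CPM with particulate (change -3.27 ± 0.20, adjusted p = 4.97e-08). The transcription factor gene FOXO4 had 22.8 ± 1.05 CPM in control and 8.22 ± 0.430 CPM with particulate (-1.47 ± 0.19).

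Of 21 tested genes of bone morphogenetic proteins and inhibitors of differentiation, 10 fell and 4 rose (median -0.57). Rising BMP genes numbered 2 in DESeq2's test or in the fit of all 8 libraries and 1 without control replicate 1 or 2. BMP4, a ligand, had 117 and 106 CPM in control and 26.7 and 19.5 CPM with particulate (change -2.27 ± 0.19, adjusted p = 1.24e-06). ID3 and ID2 encode inhibitors of differentiation, and ID3 had 116 and 112 CPM in control and 15.2 and 8.04 CPM with particulate (change -3.29 ± 0.25, adjusted p = 4.48e-07) and ID2 32.9 ± 1.72 CPM in control and 3.88 ± 0.240 CPM with particulate (-3.08 ± 0.21). SMAD6, a feedback inhibitor, had 42.995 ± 4.59 CPM in control and 13.9 ± 1.32 CPM with particulate (-1.63 ± 0.19). BMPR1B, a receptor, rose, with 1.85 ± 0.488 CPM in control and 5.79 ± 0.316 CPM with particulate (1.63 ± 0.27). Among Wnt genes 7 of 22 tested fell (31.8%, against 15.5% of all genes) and 3 rose (13.6%, the share of all genes). Rising Wnt genes numbered 5 without particulate replicate 1. WNT2B, a ligand, had 90.98 and 81.8 CPM in control and 3.30 and 3.01 CPM with particulate (change -4.77 ± 0.21, adjusted p = 6.23e-09). FZD2, a receptor, had 147 ± 28.4 CPM in control and 36.8 ± 9.32 CPM with particulate (-1.99 ± 0.20), and DKK1, a secreted inhibitor, 218 ± 1.37 CPM in control and 70.9 ± 17.8 CPM with particulate (-1.62 ± 0.18). LEF1, a transcription factor of the pathway, had 0.767 ± 0.376 CPM in control and 3.02 ± 0.331 CPM with particulate (1.94 ± 0.37). HES1, a Notch target, had 47.8 and 39.2 CPM in control and 9.04 and 6.75 CPM with particulate (change -2.46 ± 0.21, adjusted p = 1.37e-06), the only fall among 15 tested Notch genes, of which 2 rose. Rising Notch genes numbered 1 with RLE scaling, with upper quartile scaling, in limma's test, in the fit of all 8 libraries or without control replicate 1, 0 in DESeq2's test, at a minimum of 5 CPM or without control replicate 2 and 4 without particulate replicate 2, and falling ones 2 with no filter on low counts, with a replicate block, with upper quartile scaling or without particulate replicate 2.

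Members of the plasminogen system list that rose included a protease, its receptor and their inhibitors. Of 19 tested members of that list, which also holds other serpins and tissue factor genes, 9 rose and 1 fell. PLAU, the urokinase that cleaves plasminogen, had 15.8 and 15.7 CPM in control and 87.2 and 67.4 CPM with particulate (change 2.29 ± 0.19, adjusted p = 1.12e-06). PLAUR, its receptor, had 22.4 and 26.005 CPM in control and 94.2 and 83.9 CPM with particulate (change 1.88 ± 0.18, adjusted p = 3.54e-06). The urokinase inhibitor SERPINB2 also rose, with 0.716 and 0.903 CPM in control and 10.6 and 9.39 CPM with particulate (change 3.60 ± 0.29, adjusted p = 7.43e-07), and SERPINE2, another inhibitor, had 37.8 ± 4.53 CPM in control and 87.4 ± 1.81 CPM with particulate (1.21 ± 0.17).

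Metalloproteinases were split. MMP1, a collagenase, had 0 and 0.0645 CPM in control and 3.65 and 3.01 CPM with particulate, and MMP3, stromelysin, had 0.0716 and 0.0645 CPM in control and 1.97 and 1.47 CPM with particulate. The control values of both rest on very few reads, so a fold is not given. MMP14, a collagenase of the cell membrane, had 859 and 740.5 CPM in control and 1586 and 1446 CPM with particulate (change 0.92 ± 0.16, adjusted p = 0.000817). ADAMTS5, an aggrecanase, fell, with 175 and 161 CPM in control and 12.5 and 14.1 CPM with particulate (change -3.65 ± 0.18, adjusted p = 1.12e-08). TIMP3, an inhibitor that accumulates in Bruch's membrane under the pigment epithelium, had 1561 and 1507 CPM in control and 324 and 329 CPM with particulate (change -2.23 ± 0.16, adjusted p = 3.16e-07). Of 19 tested members 4 rose and 10 fell. Rising metalloproteinase genes numbered 2 at a minimum of 5 CPM.

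Fibrillar collagens and their partners had the largest share of falling members. Of 23 tested 19 fell and 0 rose, with a median of -1.31, against 15.5% lower among all genes. COL11A1, a minor fibrillar collagen chain, had 483 and 461 CPM in control and 70.6 and 93.5 CPM with particulate (change -2.52 ± 0.18, adjusted p = 2.39e-07). THBS1 had 4945 and 4624 CPM in control and 369.7 and 366 CPM with particulate (change -3.70 ± 0.18, adjusted p = 1.01e-08). COL1A1, the main chain of type I collagen, had 68.6 ± 12.8 CPM in control and 14.2 ± 0.0209 CPM with particulate (-2.27 ± 0.19), and COL5A2 had 134 ± 12.3 CPM in control and 35.5 ± 5.13 CPM with particulate (-1.92 ± 0.17). In basement membrane genes 14 of 20 fell and 0 rose (median -0.75). Rising basement membrane genes numbered 2 without particulate replicate 1 or 2, and falling ones 9 in limma's test and 8 without control replicate 1. COL4A1, a type IV collagen chain, had 1494 and 1364 CPM in control and 277 and 353 CPM with particulate (change -2.18 ± 0.18, adjusted p = 8.86e-07). HSPG2, perlecan, had 872 and 573 CPM in control and 159.5 and 219 CPM with particulate (change -1.93 ± 0.22, adjusted p = 1.7e-05). COL4A4, a chain of the specialised type IV network, had 215 ± 19.7 CPM in control and 58.7 ± 11.5 CPM with particulate (-1.88 ± 0.18).

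Of 26 tested enzymes that process collagen, 9 fell and 1 rose (median -0.32). Rising collagen enzymes numbered 0 without control replicate 1 or 2, 4 without particulate replicate 1 and 2 without particulate replicate 2, and falling ones 4 without control replicate 1 and 5 without control replicate 2. LOXL2, a cross-linking oxidase, had 755 ± 114 CPM in control and 306 ± 36.1 CPM with particulate (-1.30 ± 0.17), and SERPINH1, the collagen chaperone, 642 ± 61.4 CPM in control and 348 ± 15.8 CPM with particulate (-0.88 ± 0.16). Of 17 tested proteoglycan and hyaluronan genes 8 fell and 2 rose. Rising proteoglycan genes numbered 4 without particulate replicate 1, and falling ones 3 at a minimum of 5 CPM and 5 without control replicate 1. CD44, the hyaluronan receptor, had 692 and 745 CPM in control and 1644 and 1794 CPM with particulate (change 1.26 ± 0.16, adjusted p = 5.8e-05), and HAS3, a hyaluronan synthase, had 2.51 ± 0.0883 CPM in control and 5.72 ± 0.0240 CPM with particulate (1.18 ± 0.25). CEMIP, which degrades hyaluronan, had 4.29 and 3.61 CPM in control and 0.232 and 0.123 CPM with particulate (change -4.41 ± 0.44, adjusted p = 5.26e-06). The syndecan gene SDC2 had 242 ± 5.24 CPM in control and 102 ± 4.07 CPM with particulate (-1.25 ± 0.15).

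Integrin and focal adhesion genes mostly fell, and ITGA2 rose. Of 27 tested integrin and focal adhesion genes 17 fell and 3 rose (median -0.56). Falling adhesion genes numbered 8 without control replicate 1. ITGB4, the integrin subunit of hemidesmosomes, had 75.9 and 57.4 CPM in control and 18.7 and 19.3 CPM with particulate (change -1.81 ± 0.19, adjusted p = 9.83e-06). ITGB8 had 69.7 ± 0.259 CPM in control and 23.5 ± 9.75 CPM with particulate (-1.57 ± 0.24), and ACTN4, an actin cross-linker, 1475 ± 223 CPM in control and 667 ± 6.47 CPM with particulate (-1.14 ± 0.17). ITGA2, the alpha subunit of a collagen receptor, rose, with 4.72 and 4.71 CPM in control and 22.5 and 42.1 CPM with particulate (change 2.77 ± 0.28, adjusted p = 6.54e-06).

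Contractile genes fell from actins to their coactivator. Of 28 tested actin, myosin and contractile genes 23 fell and 1 rose, with a median of -0.90. Rising contractile genes numbered 2 without particulate replicate 1 and 3 without particulate replicate 2, and falling ones 15 without control replicate 2. MYOCD, the coactivator myocardin that drives smooth muscle genes, had 44.95 and 36.3 CPM in control and 3.42 and 2.64 CPM with particulate (change -3.74 ± 0.23, adjusted p = 5.92e-08). ACTA2, smooth muscle alpha-actin, had 48.96 and 56.8 CPM in control and 12.9 and 10.98 CPM with particulate (change -2.14 ± 0.19, adjusted p = 1.85e-06). LMOD1, which nucleates actin filaments in smooth muscle, had 24.9 and 21.4 CPM in control and 0.522 and 0.920 CPM with particulate (change -5.00 ± 0.29, adjusted p = 3.8e-08). SMTN, smoothelin, was the gene that rose, with 55.4 ± 1.37 CPM in control and 109 ± 17.3 CPM with particulate (0.98 ± 0.17). Of 28 tested tubulins and kinesins 5 rose (17.9%) and 2 fell (7.14%), against 13.6% and 15.5% of all genes. Rising tubulins and kinesins numbered 3 at a minimum of 5 CPM, in limma's test or in the fit of all 8 libraries, 0 without control replicate 1, 2 without control replicate 2 and 9 without particulate replicate 1, and falling ones 1 in DESeq2's test or without control replicate 2, 0 without control replicate 1, 5 without particulate replicate 1 and 8 without particulate replicate 2.

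Serum response factor binds the CArG box, and promoters with this box are shown because their genes fell together. The box was found in 5 of 24 promoters of the contractile list (20.8%), those of ACTG1, CNN2, MYLK, SRF and TPM4, all of which passed as lower. It occurs in 1.29% of all 27305 promoters, in 2.36% of promoters of genes that fell at least 2-fold, in 1.76% of those that rose as much and in 0.794% of those that did not pass. MYLK, the gene of the myosin light chain kinase, had 325 and 291 CPM in control and 57.7 and 88.8 CPM with particulate (change -2.07 ± 0.20, adjusted p = 4.17e-06). CNN2, a calponin, had 312 and 312 CPM in control and 98.2 and 80.2 CPM with particulate (change -1.81 ± 0.16, adjusted p = 2.47e-06). Both were chosen for this box after their values were seen. Counts are per gene, while each stretch lies before the start taken for that gene symbol. For MYLK this start was not shown to be that of the full kinase transcript. Whether the fall came from transcripts of that start was not tested. The 120 bases before the start (RefSeq, GRCh38.p14, 5′ to 3′ on the strand of the gene) are given with the CArG box in capitals, ending 85 bases before the start in ACTG1 and MYLK and 80 in CNN2. They lie at chr17:81512800-81512919, minus strand, chr3:123620549-123620668, minus strand and chr19:1026488-1026607, plus strand.
ACTG1: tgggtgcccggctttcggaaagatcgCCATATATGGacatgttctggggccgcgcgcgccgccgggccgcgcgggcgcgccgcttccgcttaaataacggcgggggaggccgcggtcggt
MYLK: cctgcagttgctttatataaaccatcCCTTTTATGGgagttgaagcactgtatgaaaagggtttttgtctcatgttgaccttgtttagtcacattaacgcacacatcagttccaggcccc
CNN2: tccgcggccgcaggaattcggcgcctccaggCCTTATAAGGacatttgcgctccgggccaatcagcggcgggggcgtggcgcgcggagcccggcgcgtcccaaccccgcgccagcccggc

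Keratin genes of simple and stratified epithelia fell, and many lie next to each other. Of 19 tested intermediate filament genes 9 fell and 1 rose. Rising intermediate filament genes numbered 2 with no filter on low counts or without particulate replicate 1, 0 in limma's test or without control replicate 1 or 2 and 3 without particulate replicate 2. KRT80 had 1082 and 998 CPM in control and 154 and 173 CPM with particulate (change -2.67 ± 0.17, adjusted p = 7.86e-08), KRT7 had 3496 and 2943 CPM in control and 738 and 547 CPM with particulate (change -2.32 ± 0.19, adjusted p = 1.06e-06), and KRT86 had 8.50 ± 2.25 CPM in control and 0.414 ± 0.152 CPM with particulate (-4.32 ± 0.36). Vimentin, VIM, the filament of mesenchymal cells, had 7768 ± 324 CPM in control and 6703 ± 536 CPM with particulate and did not pass (change -0.21 ± 0.17, adjusted p = 0.365). On chromosome 12, between 52168996 and 53064372 (GRCh38), 9 tested protein-coding genes in a row were lower: KRT80, KRT7, KRT86, KRT81, KRT4, KRT8, KRT18, EIF4B and TNS2. KRT81 and KRT86 are near-identical, so their reads may not be separate, and KRT4 had no read with particulate. Of 31 tested junction and polarity genes 15 fell and 1 rose. Rising junction genes numbered 2 with no filter on low counts, with a replicate block or without particulate replicate 1, 0 in limma's test or without control replicate 1 or 2 and 3 without particulate replicate 2. JUP, plakoglobin, had 107 and 92.1 CPM in control and 33.3 and 29.5 CPM with particulate (change -1.66 ± 0.17, adjusted p = 8.79e-06), and PKP2, a desmosomal plakophilin, 64.3 ± 1.45 CPM in control and 26.8 ± 4.70 CPM with particulate (-1.26 ± 0.18).

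The label of retinal pigment epithelium was borne out by some markers and not by others. RPE65, RGR, TTR and DCT had no read in any of the 4 libraries, which is known of ARPE-19 in ordinary culture for the visual cycle genes. The summed level of the 15 markers was 1243 and 1291 CPM in control and 587 and 585 CPM with particulate. Most of this sum came from the single marker EFEMP1. Of the 9 tested markers 6 fell, 1 rose and the others did not pass. MITF, the pigment cell transcription factor, had 73.01 and 70.9 CPM in control and 16.9 and 22.9 CPM with particulate (change -1.85 ± 0.19, adjusted p = 8.12e-06). EFEMP1, fibulin-3, had 952 and 1015 CPM in control and 377 and 413 CPM with particulate (change -1.32 ± 0.16, adjusted p = 3.48e-05). PAX6, an eye field factor, had 129 ± 8.07 CPM in control and 62.4 ± 0.684 CPM with particulate (-1.04 ± 0.16). BEST1, a chloride channel of the pigment epithelium, was higher (0.519 ± 0.278 CPM in control and 2.73 ± 0.910 CPM with particulate, 2.40 ± 0.44), and it overlaps FTH1 on the opposite strand.

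Genes that store and convert retinoids were lower. Of 12 tested 8 fell and 2 rose (median -1.34). Rising retinoid genes numbered 1 in DESeq2's test or at a minimum of 5 CPM and 0 in the fit of all 8 libraries or without control replicate 1 or 2. RDH10, which oxidizes retinol, had 278 and 272 CPM in control and 35.9 and 46.01 CPM with particulate (change -2.75 ± 0.18, adjusted p = 8.8e-08). DHRS3, which reduces retinaldehyde, had 143 and 139 CPM in control and 30.03 and 29.3 CPM with particulate (change -2.25 ± 0.16, adjusted p = 3.01e-07). LRAT, which esterifies retinol, had 7.80 and 5.94 CPM in control and 0.985 and 0.859 CPM with particulate (change -2.88 ± 0.30, adjusted p = 8.79e-06). RARB, a retinoic acid receptor and itself a target of retinoic acid, had 75.7 and 74.7 CPM in control and 12.4 and 14.5 CPM with particulate (change -2.48 ± 0.18, adjusted p = 3.37e-07). Of the receptors and ligands of photoreceptor debris uptake, 4 of 14 fell (28.6%) and 2 rose (14.3%), against 15.5% and 13.6% of all genes. Rising uptake genes numbered 1 in the fit of all 8 libraries and 0 without control replicate 1 or 2. GAS6, a bridging ligand, had 293 ± 10.1 CPM in control and 147 ± 21.3 CPM with particulate (-0.99 ± 0.16), and AXL, a receptor for it, had 652 ± 5.68 CPM in control and 584 ± 25.8 CPM with particulate and did not pass (change -0.16 ± 0.15, adjusted p = 0.479).

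Markers of blood and vessel cells were at or near 0, and those of fibroblasts and epithelia fell. Immune cell markers summed to 0.358 to 0.522 CPM and endothelial markers to 0.258 to 0.429 CPM in the 4 libraries, with 0 of 8 and 0 of 6 tested, and CD3E and AIF1 at 0. The 8 fibroblast markers summed to 338 and 281 CPM in control and 38.1 and 40.4 CPM with particulate. All 4 that were tested fell (COL1A1, COL1A2, COL3A1 and PDGFRB), and LUM was at 0. The 7 markers of simple and stratified epithelium summed to 3504.7 and 3223.5 CPM in control and 2179.65 and 1656 CPM with particulate, and all 4 that were tested fell. All samples are of 1 cell line, so these markers do not by themselves show cells of another kind. Whether other cells had a part in the matrix results was not tested.

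Mitosis genes fell, and some DNA replication genes rose. Of 31 tested mitosis genes 17 fell and 0 rose (median -0.53). Falling mitosis genes numbered 11 in the fit of all 8 libraries, 7 without control replicate 1 and 6 without control replicate 2. KIF20A, a kinesin of cytokinesis, had 249.7 and 255 CPM in control and 86.4 and 95.5 CPM with particulate (change -1.47 ± 0.16, adjusted p = 1.01e-05). TOP2A, topoisomerase II, had 433 and 439 CPM in control and 172 and 225 CPM with particulate (change -1.14 ± 0.17, adjusted p = 0.000204). Of 34 DNA replication genes 8 rose and 0 fell (median 0.20). CCNE1, the cyclin that starts S phase, had 7.30 and 10.3 CPM in control and 22.5 and 18.96 CPM with particulate (change 1.23 ± 0.22, adjusted p = 0.000696), and ORC6, an origin recognition subunit, 20.2 ± 1.97 CPM in control and 42.04 ± 5.15 CPM with particulate (1.06 ± 0.18). Rising replication genes numbered 4 in the fit of all 8 libraries, 2 without control replicate 1, 5 without control replicate 2 and 17 without particulate replicate 2, and falling ones 2 without particulate replicate 1.

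The cell cycle homology region is a promoter element of mitotic genes bound by the MuvB complex. Its letters TTTGAA were found, on either strand, in 17 of 26 mitosis promoters (65.4%), and 12 of these 17 genes fell. They occur in 15.4% of all promoters and in 9.57% of the 10675 promoters of tested genes. PLK1, the polo-like kinase of mitosis, had 130.5 and 129 CPM in control and 85.6 and 74.5 CPM with particulate (change -0.70 ± 0.16, adjusted p = 0.00414), and CCNB2, a B-type cyclin, had 73.4 and 82.98 CPM in control and 56.9 and 47.4 CPM with particulate (change -0.59 ± 0.17, adjusted p = 0.0198). Both were chosen for their match after their values were seen. Their 120 bases before the start (RefSeq, GRCh38.p14, 5′ to 3′) lie at chr16:23678769-23678888, plus strand and chr15:59105026-59105145, plus strand, and the element, in capitals, ends 24 bases before the start in both.
PLK1: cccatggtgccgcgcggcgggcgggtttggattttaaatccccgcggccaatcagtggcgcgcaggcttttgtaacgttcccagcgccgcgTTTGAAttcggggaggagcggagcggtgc
CCNB2: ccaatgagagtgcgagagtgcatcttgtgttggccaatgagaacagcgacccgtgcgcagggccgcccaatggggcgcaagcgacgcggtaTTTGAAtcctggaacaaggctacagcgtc

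Several inhibitors of cyclin-dependent kinases fell as well. Of 15 tested inhibitors, D cyclins and partners 8 fell and 2 rose. Rising inhibitors and cyclins numbered 1 without control replicate 1 or 2 and 4 without particulate replicate 1, and falling ones 5 without control replicate 1 or 2. CDKN2B, which encodes p15, had 170.1 and 147 CPM in control and 20.9 and 20.9 CPM with particulate (change -2.92 ± 0.17, adjusted p = 4.23e-08). CDKN1B, which encodes p27, had 104 and 98.5 CPM in control and 43.9 and 48.6 CPM with particulate (change -1.13 ± 0.16, adjusted p = 0.000153). CCND1, cyclin D1, rose, with 660.1 and 625 CPM in control and 1249 and 1292 CPM with particulate (change 0.98 ± 0.16, adjusted p = 0.000359). PLK2, a polo-like kinase, fell, with 1570.4 and 1567 CPM in control and 188 and 128 CPM with particulate (change -3.31 ± 0.20, adjusted p = 6.23e-08). BTG2, an antiproliferative gene, had 45.3 ± 1.40 CPM in control and 10.3 ± 0.472 CPM with particulate (-2.13 ± 0.18). PMAIP1, which encodes the death activator NOXA, rose, with 9.09 and 9.49 CPM in control and 27.8 and 39.5 CPM with particulate (change 1.85 ± 0.21, adjusted p = 2.08e-05). Of 26 tested p53 target genes 17 fell (65.4%) and 4 rose (15.4%), against 15.5% and 13.6% of all genes. Of 28 tested BCL2 family, caspase and pyroptosis genes 7 rose (25%) and 4 fell (14.3%). In the fit of all 8 libraries the latter were 4 and 2.

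In lipid metabolism several lipid droplet and fat oxidation genes rose, and sterol synthesis genes fell. Of 22 tested lipid droplet, fat oxidation and PPAR target genes 8 rose and 2 fell. Rising lipid genes numbered 5 in limma's test, and falling ones 0 at a minimum of 5 CPM. CPT1A, which admits fatty acids to mitochondria, had 49.5 and 48.98 CPM in control and 99.9 and 99.8 CPM with particulate (change 1.02 ± 0.16, adjusted p = 0.000282). PLIN2, which coats lipid droplets, had 73.1 and 78.9 CPM in control and 179 and 332 CPM with particulate (change 1.75 ± 0.23, adjusted p = 8.16e-05), with an adjusted p of 0.0505 in the fit of all 8 libraries. PDK4, a kinase that limits glucose oxidation, fell, with 4.11 ± 0.157 CPM in control and 0.808 ± 0.159 CPM with particulate (-2.34 ± 0.32). Of 26 tested mevalonate and sterol genes 12 fell and 0 rose (median -0.45). Rising sterol genes numbered 1 without particulate replicate 1 and 2 without particulate replicate 2, and falling ones 7 in the fit of all 8 libraries, 5 without control replicate 1 and 4 without control replicate 2. HMGCS1, an early enzyme of the pathway, had 162 and 188 CPM in control and 73.9 and 85.1 CPM with particulate (change -1.14 ± 0.16, adjusted p = 0.000139). INSIG1, a sterol sensor partner, had 140.5 ± 2.28 CPM in control and 62.8 ± 7.40 CPM with particulate (-1.16 ± 0.16).

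Several glycolysis and hypoxia genes were far apart between the particulate libraries. PFKFB3, which makes the activator of glycolytic phosphofructokinase, had 125 and 114 CPM in control and 103 and 430.3 CPM with particulate (change 1.16 ± 0.41, adjusted p = 0.0477), and without particulate replicate 2 its change was -0.21 (adjusted p = 0.184). NDRG1, a hypoxia-induced gene, had 197 and 168 CPM in control and 224 and 772 CPM with particulate (change 1.45 ± 0.37, adjusted p = 0.00975). HK2, a hexokinase, had 60.4 and 51.9 CPM in control and 91.6 and 316 CPM with particulate (change 1.86 ± 0.38, adjusted p = 0.00211). In each of these particulate replicate 2 stood far above the other 3 libraries, and in PFKFB3 replicate 1 did not exceed control. PFKFB4, a related enzyme, had 28.8 and 25.04 CPM in control and 35.1 and 115 CPM with particulate (change 1.48 ± 0.37, adjusted p = 0.00812), and LOC102724594 had 1.86 and 1.81 CPM in control and 5.57 and 33.2 CPM with particulate. In DESeq2's test the adjusted p was 0.389 for PFKFB3, 0.199 for NDRG1, 0.0776 for HK2 and 0.184 for PFKFB4, and in the fit of all 8 libraries 0.371, 0.342, 0.175 and 0.287. These 5 were the genes with the largest gap between the particulate libraries among those that passed. Of 26 tested glycolysis and glucose transport genes 6 rose and 7 fell. Rising glycolysis genes numbered 2 in DESeq2's test, 1 in limma's test and 0 in the fit of all 8 libraries, and falling ones 3 in the fit of all 8 libraries or without control replicate 2, 4 without control replicate 1 and 11 without particulate replicate 2. Of 20 tested hypoxia-induced genes 3 rose (15%) and 5 fell (25%), against 13.6% and 15.5% of all genes. Rising hypoxia genes numbered 1 in DESeq2's test or in limma's test, 0 in the fit of all 8 libraries and 7 without particulate replicate 1, and falling ones 2 in limma's test or without control replicate 2, 0 in the fit of all 8 libraries, 3 without control replicate 1 or without particulate replicate 1 and 15 without particulate replicate 2. SLC2A12, a glucose transporter, was low in both particulate libraries, with 24.1 and 26.9 CPM in control and 2.38 and 4.29 CPM with particulate (change -2.94 ± 0.26, adjusted p = 1.55e-06).

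**Figure D4:**
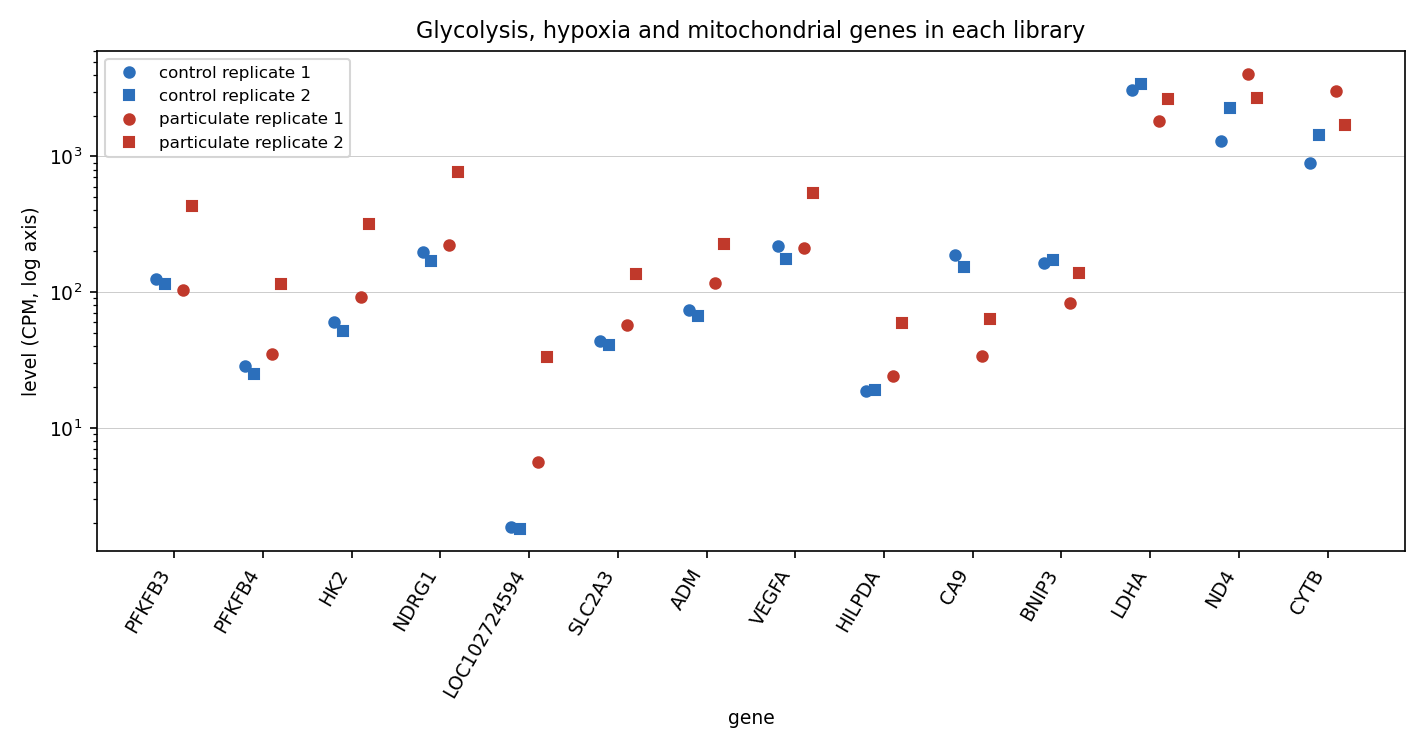
Level of 14 glycolysis, hypoxia-induced and mitochondrially encoded genes in each library, in CPM on a log axis, with control in blue, particulate in red, circles for replicate 1 and squares for replicate 2. PFKFB3, PFKFB4, HK2 and NDRG1 are highest in particulate replicate 2, while ND4 and CYTB are highest in particulate replicate 1.

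The mean level of mitochondrially encoded messages was highest in particulate replicate 1. ND4, a subunit of complex I, had 1299 and 2271 CPM in control and 4087 and 2712 CPM with particulate (change 0.93 ± 0.25, adjusted p = 0.0121), with an adjusted p of 0.174 in DESeq2's test and 0.183 without control replicate 1. Of the 13 such genes 4 rose and 0 fell. Rising mitochondrial messages numbered 11 with no filter on low counts, 1 in DESeq2's test or without control replicate 1, 2 in the fit of all 8 libraries, 9 without control replicate 2 and 12 without particulate replicate 2, and falling ones 1 without particulate replicate 1. Of 30 tested nuclear genes of the respiratory chain 0 passed in either direction in edgeR's test, with a median of 0.10. Rising respiratory chain genes numbered 1 with no filter on low counts, 2 without particulate replicate 1 and 11 without particulate replicate 2, and falling ones 3 without particulate replicate 1.

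Among circadian genes 6 of 16 tested fell and 4 rose. Rising clock genes numbered 2 in limma's test, in the fit of all 8 libraries or without control replicate 1. DBP, a clock output factor, had 19.04 and 16.6 CPM in control and 5.04 and 4.42 CPM with particulate (change -1.91 ± 0.21, adjusted p = 1.51e-05). PER3, a period gene, had 33.1 ± 0.793 CPM in control and 13.5 ± 2.31 CPM with particulate (-1.30 ± 0.19), and CRY1, a cryptochrome, 48.7 ± 4.15 CPM in control and 25.5 ± 3.63 CPM with particulate (-0.94 ± 0.18). NPAS2, an activating clock factor, had 2.08 and 2.06 CPM in control and 8.46 and 8.22 CPM with particulate (change 2.01 ± 0.24, adjusted p = 3.7e-05). The core activators BMAL1 and CLOCK had 10.7 ± 1.66 CPM in control and 10.2 ± 1.67 CPM with particulate and 46.3 ± 2.20 CPM in control and 54.8 ± 14.6 CPM with particulate and did not pass (change -0.07 ± 0.21, adjusted p = 0.841 and change 0.24 ± 0.20, adjusted p = 0.382).

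Long noncoding genes fell in a larger share than protein-coding ones, a difference that was not tested. Of 1157 tested, 282 fell (24.4%) and 81 rose (7%), with a median of -0.35. Of 12233 protein-coding genes 1837 fell (15%) and 1802 rose (14.7%), with a median of 0.04. Of the protein-coding genes that span 82602 bases or more, 19.9% fell and 11.5% rose, against 14.6% and 15.5% of those that span 13939 bases or less. The host genes of small nucleolar RNAs SNHG15 and SNHG17 rose (8.03 ± 0.685 CPM in control and 23.1 ± 6.92 CPM with particulate, 1.53 ± 0.23, and 13.04 ± 0.724 CPM in control and 30.2 ± 9.37 CPM with particulate, 1.21 ± 0.22). The median absolute log2 fold change was 0.70 in genes with a mean under 1 CPM and 0.29 in those of 100 CPM or more. The direction also differed by level. Of 998 genes under 1 CPM 191 fell and 60 rose, and of 3796 at 1 to 10 CPM 716 and 403. Of 7512 genes at 10 to 100 CPM 931 fell and 1209 rose, and of 2081 at 100 CPM or more 399 and 278. Whether level accounts for the share of long noncoding genes that fell was not tested.

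Some neighbouring genes passed in the same direction, counting runs of at least 4 tested protein-coding genes in a row past the threshold in 1 direction. Other runs are not reported here. Among all tested protein-coding genes 14.7% rose and 15% fell, and how many such runs chance would give was not tested. Besides the keratins on chromosome 12, 5 genes fell in a row on chromosome 19 between 43064211 and 43363172 (GRCh38): PSG2, PSG5, PSG4, PSG9, which encode pregnancy-specific glycoproteins of near-identical sequence, and CD177. On chromosome 4, between 74036589 and 74794686, CXCL3, CXCL2, MTHFD2L and BTC rose. CXCL3 and CXCL2 attract neutrophils and BTC is a ligand of the EGF receptor. For BTC the adjusted p was 0.116 in DESeq2's test and 0.0698 in the fit of all 8 libraries. CXCL2 had 0.429 and 0.0645 CPM in control and 1.57 and 2.76 CPM with particulate (change 3.13 ± 0.58, adjusted p = 0.00108). Its control values rest on very few reads, and its change ran from 2.02 to 4.91 over the alternative fits. Near-identical copies may share reads.

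The same contrast was repeated in the libraries with fucoidan, which share none with the comparison above. Of 14577 genes tested for the combination against fucoidan alone, 1511 passed (10.4%), 642 of them higher (4.4%) and 869 lower (5.96%). Of the 1920 genes that had risen and were tested there, 1879 had the same sign (97.9%), 556 passed as higher and 0 as lower. Of the 2208 that had fallen, 2111 had the same sign (95.6%), 771 passed as lower and 0 as higher. Across the 14175 genes tested in both, Pearson's r of the log2 fold changes was 0.84, a description across genes, which are not independent. The combination replicates differed at least 2-fold in 960 genes (6.67%), and the number of passing genes was 87 and 119 without fucoidan replicate 1 and 2, and 6367 and 7906 without combination replicate 1 and 2.

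In this second contrast IL6R changed by 4.41 ± 0.81, FOSL1 by 3.71 ± 0.29, ODC1 by 2.22 ± 0.16 and RRP12 by 1.19 ± 0.26, while PLAU had 1.11 ± 0.61 and did not pass (adjusted p = 0.266). PTGIS changed by -4.26 ± 0.41, THBS1 by -2.89 ± 0.44, MYOCD by -1.87 ± 0.20, IGFBP5 by -2.34 ± 0.20, ID3 by -2.99 ± 0.27 and RDH10 by -2.05 ± 0.15. NPPB had -1.01 ± 0.91 (adjusted p = 0.482) against -5.17 ± 0.23 without fucoidan, and the test of the difference did not pass (difference 4.17 ± 1.11, adjusted p = 0.892). Over all genes the difference between the backgrounds passed for 0 of 15010 in edgeR's test (0%), with 668 at an unadjusted p under 0.05, and for 17 in DESeq2's. It passed for 865 genes without combination replicate 2 and for 2 without combination replicate 1. A gene that misses this test is not shown to respond alike.

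**Figure D5:**
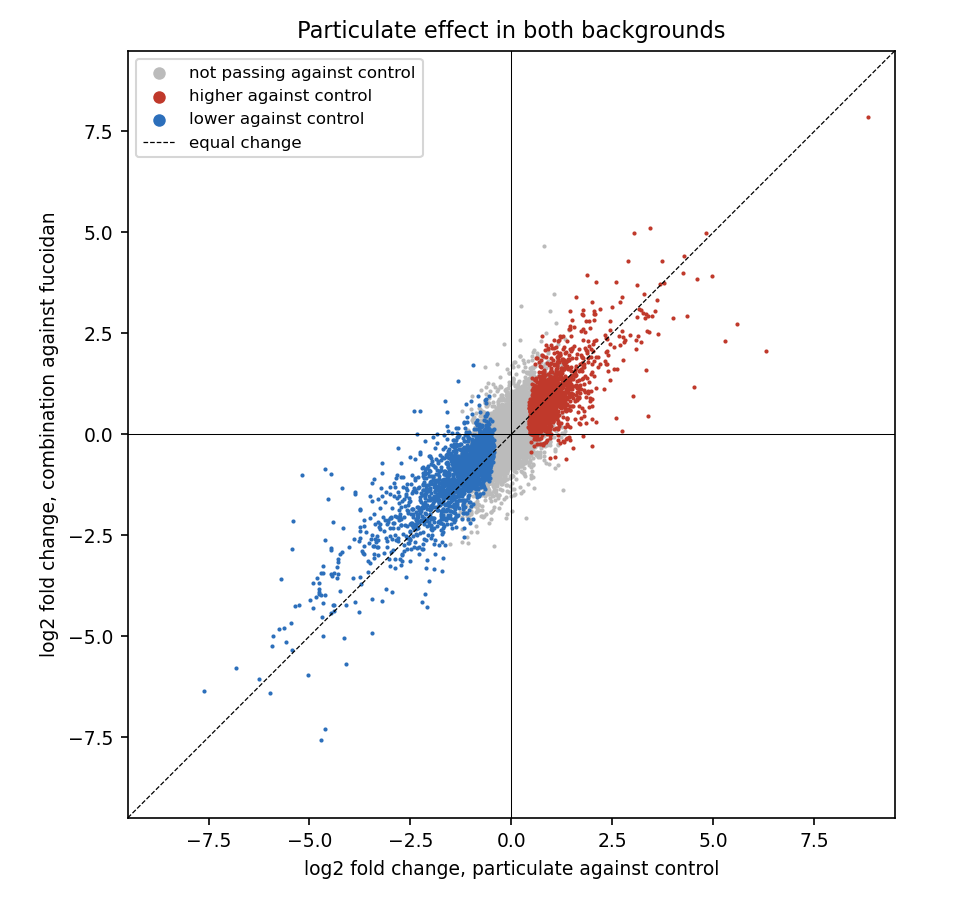
Log2 fold change of particulate against control (x axis) and of the combination against fucoidan (y axis) for 14164 genes tested in both contrasts, with genes that have no read in 1 group of the first left out. Red genes rose and blue genes fell in the first contrast at an adjusted p under 0.05, and the dashed line marks equal change. Red points lie almost all above 0 on the y axis and blue points almost all below it.

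Some named genes overlap a gene on the opposite strand, and the sources used here leave the strand setting unstated, so reads of the partner may be included. They are ACTA2, ACTB, ACTG1, ACTN4, ADAMTS5, AHR, AIFM2, ALDH1A3, ALDH3B1, ALDH6A1, ANGPTL4, ARNT2, AXL, BEST1, CCDC190, CCNB2, CCND1, CD177, CD44, CDKN2B, CEMIP, CLOCK, CNN2, COL1A2, COL3A1, COL4A1, COL5A2, CRY1, CRYAB, CTSK, DBP, DKK1, DUSP16, DUSP6, EIF4B, ERBB4, ETV4, FGF1, FKBP4, FTH1, GARS1, GAS6, GCH1, GLA, HAS3, HK2, HMGCS1, HSP90AA1, HSPG2, ID2, IFIT1, IGFBP5, IL18, IL1R1, IL6, IL6R, IRF1, ITGA2, ITGB4, ITGB8, JUNB, KIF20A, KRT18, KRT7, KRT8, KRT80, KRT81, KRT86, LEF1, LINC01203, LMOD1, LOXL2, LUCAT1, MARS1, MGST1, MITF, MMP1, MMP3, MTHFD2, MTHFD2L, MYBBP1A, MYLK, MYOCD, NEDD9, NFE2L2, NOP16, NPAS2, NRG1, NRP1, PAX6, PDGFB, PER3, PFKFB3, PHLDA1, PIK3IP1, PKP2, PLAU, PLK1, PSG2, PSG5, RARB, RDH10, RRP12, SLC2A12, SMTN, SOCS2, SPARC, THBS1, TIMP3, TIPARP, TNS2, TPM4, UPB1, VEGFC, VIM, WNT2B and YARS1.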

How the data were processed

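Poly(A) RNA libraries (TruSeq Stranded mRNA, Illumina, 150-bp pairs) were made from 8 samples in 4 groups. Per the submitters' processing notes, reads were handled with bcl2fastq, fastp 0.20.0, FastQC 0.11.9 and HISAT2 2.1.0 on GRCh38. The gene counts deposited by the authors are read counts per gene from featureCounts of Subread 2.0.1, per the same notes. The TPM values deposited by the authors stand in the same table, by a tool not given in the sources used here. Those sources also leave out the annotation release, whether strand was used in counting, and what was done with multi-mapping reads. All 60623 genes were read, 24714 had a read in the 4 libraries compared and 14387 passed edgeR's filter on low counts. Differences were tested with edgeR 4.0.16 (R 4.3.3), TMM scaling and a quasi-likelihood fit on the 4 libraries (2 residual degrees of freedom, common dispersion 0.0180), with Benjamini-Hochberg adjustment. Alternatives used DESeq2 1.42.0, limma 3.58.1 on log2(TPM + 1), other scalings and filters, all 8 libraries, a replicate block and each library left out. Precision rested on total counts of 14359672 to 16841464 and on the spread between 2 libraries a group.

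Named genes were drawn from the 14 steepest changes in each direction at a mean of at least 5 CPM with groups that do not overlap, the 8 largest CPM differences in each direction, up to 4 members of each of 73 gene lists in each direction by adjusted p, genes with no read in 1 group, and the 5 largest gaps between the particulate libraries. A selection is printed, and some genes that the rule names are not reported here. AHR, ATF3, AXL, BMAL1, CCNB2, CLOCK, CNN2, IL6, MYLK, NFE2L2, PLK1 and VIM fall outside it and were chosen after their values were seen. The comparison, the lists and the rule were chosen with earlier results of these data known. On simulated counts for 14387 genes the test found 78% of 2-fold and 97% of 4-fold changes among 200, with 6 false calls in 181. The simulation changed only genes above 1 CPM and gave both groups the same spread. In the data, replicates differed at least 2-fold in 5 genes for control and 133 for particulate, so these rates need not hold here. Promoters of 27305 genes and the printed sequences came from RefSeq (GRCh38.p14), and 10675 of the tested genes had one. Per-sample columns not used numbered 0.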

Additional observations from a re-analysis of the deposited data

How the results depend on the processing

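Calls for particulate against control depended mainly on which library was left out. The number of genes past the threshold, 4187 in the reported fit, ranged from 1755 to 6831 over the fits without 1 library, genes higher from 594 to 3376, genes lower from 1161 to 3455 and genes changed at least 2-fold from 1475 to 2164. A minimum of 5 CPM in 2 libraries gave 1113 genes changed at least 2-fold, against 1842, with fewer genes tested (11127). All other scalings, filters, tools and sample sets kept these counts within 1.5 times. For the combination against fucoidan the count was 1511, 3882 without a filter on low counts, and 87 to 7906 over the fits without 1 library. For the difference between backgrounds it was 0, 156 without a filter, 17 with DESeq2, and 0 to 865 over the fits without 1 library. The cause was not tested. Where 1 library was left in a group, it was assumed to vary like the other group. With a replicate block, 4415 genes passed against control, 1440 in the fucoidan background and 0 for the difference. Across genes, the deviations of same-numbered libraries had a correlation of -0.01 for control and particulate and 0.04 for fucoidan and combination. With 2 libraries a group, these values cannot show whether the numbers pair the samples. Of 427 genes named by the rule, 264 kept their side of the threshold in each alternative run. PFKFB3 changed sign without particulate replicate 2, to -0.21, and was at 1.84 without particulate replicate 1.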
